A study of Mus musculus with 4 samples.

Results

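Genes of glycolysis and of the hypoxia response were followed through 4 RNA-seq libraries of mouse shoulder capsule cells, labelled as synovial fibroblasts. Macrophage markers summed to more TPM than fibroblast markers in each, though in wild type only because of 1 marker, Lyz2. The group holds 36 named genes of the 16416 in the table, 21 of sugar breakdown and its control and 15 of oxygen sensing and its transcriptional targets. They were taken by name from a list drawn up with earlier results of these data known, and all 36 were found, with Ero1a listed under its older symbol Ero1l. The cells had grown out of joint capsule tissue of wild-type and miR-26a knockout mice 1 week after the shoulder was immobilized, a model of frozen shoulder, and were used at passage 2 in culture medium with serum. The first library came from miR-26a -/- cells transfected for 24 h with 10 nM of a double-stranded miR-26a mimic, and the next from miR-26a -/- cells given 10 nM of Silencer Negative Control siRNA#1 for the same time. Another came from untransfected miR-26a -/- cells, labelled KO26, and the last from untransfected wild-type C57BL6/J cells. Those with miR-26a -/- cells, 3 in number, thus share the knockout, and the 2 transfected ones share the transfection reagent. These 3 are not replicates of a condition, and each is set against the same wild-type library. The number and age of the animals behind each culture, the oxygen level of the cultures and which miR-26a gene was deleted are not stated in the labels, and the microRNA itself is not among the genes analysed here. With 1 library a group there is no spread between cultures, so each ratio is printed with an exact 95% binomial interval in parentheses that covers counting error only.

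Glycolysis splits glucose into pyruvate in the cytosol, and lactate dehydrogenase turns pyruvate into lactate when it is not burnt in mitochondria. Oxygen controls the same enzymes through hypoxia-inducible factor (HIF), whose alpha subunit is hydroxylated by prolyl hydroxylases and then degraded while oxygen is present. When oxygen falls, the alpha subunit stays, pairs with ARNT and binds short DNA cores in the promoters of glucose transporters, glycolytic enzymes and genes of vessel growth and mitochondrial turnover. HIF1A is controlled mostly at the protein level, so its mRNA does not report HIF activity.

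MicroRNA miR-26a pairs with target transcripts through its seed, bases 2 to 8. The mature strand below is shown because the knockout and the mimic are both defined by it, with the seed in capitals. It is encoded at chr9:119031811-119031832 and again at chr10:126995543-126995564 (GRCm38.p6, both + strand, RefSeq), and the sense strand of the mimic in the labels is identical to it.
mmu-miR-26a-5p: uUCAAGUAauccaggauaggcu
The anti-sense strand of the mimic differed from the natural miR-26a-1-3p by the single substitution A14C, counted from 1 at the 5' end with the natural base first. In both strands the base that differs is in capitals.
mimic anti-sense strand: ccuauucuugguuCcuugcacg
mmu-miR-26a-1-3p: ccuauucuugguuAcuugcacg

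The site that pairs with the seed, TACTTGA, was looked for in the longest annotated 3' UTR of each gene (GENCODE M21, GRCm38). It was present in 3 of the 36 members, Pfkfb3, Mxi1 and Adm, a share of 8.33% against 10.6% of all 15777 genes of the table with a 3' UTR. In these 3 genes at least 1 site was followed by A, the longer form TACTTGAA, which 4.52% of all genes hold. The 4 sites are shown with their surroundings, capitals marking the site, as the places where the mimic could pair with a member.
Pfkfb3, first site, chr2:11472101-11472107, - strand: tcatttgtaaTACTTGAagtttattttttt
Pfkfb3, last site, chr2:11471590-11471596, - strand: tcagtgccttTACTTGAgtcaatcatttta
Mxi1, chr19:53371844-53371850, + strand: ctaaaaactaTACTTGAacaaaacggtcag
Adm, chr7:110629426-110629432, + strand: gcctcattacTACTTGAactttccaaaacc

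The core that HIF binds was searched in promoters, windows around annotated starts taken from RefSeq (GRCm38.p6). A gene can have several windows, some of which overlap and were counted separately. A window can also lie inside the gene's span, as for Hif1a. Either ACGTG or GCGTG was counted on both strands (CACGT and CACGC where the other strand holds it), and the palindrome CACGTG counts on each strand. Promoters were held for 34 of the 36 members, 52 in all, and 40 of them, 76.9%, held a core, against 57.3% of 16390 promoters of genes in the table. The form ACGTG was in 53.8% of the members' promoters and 23.5% of those in the table. For GCGTG the shares were 51.9% and 46.1%. The promoters of Hif1a, Bnip3 and Slc16a3 are printed because these genes were at least 1.5-fold lower with the negative control than in untransfected knockout cells, with cores in capitals. A match describes letters in this window and is not a measured binding site.
Hif1a, chr12:73907617-73907916, + strand: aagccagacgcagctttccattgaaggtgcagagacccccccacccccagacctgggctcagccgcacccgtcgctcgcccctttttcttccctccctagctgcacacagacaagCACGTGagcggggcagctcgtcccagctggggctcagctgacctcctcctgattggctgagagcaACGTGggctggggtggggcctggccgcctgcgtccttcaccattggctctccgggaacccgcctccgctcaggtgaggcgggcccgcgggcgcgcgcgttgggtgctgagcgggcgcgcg
Bnip3, chr7:138909457-138909756, - strand: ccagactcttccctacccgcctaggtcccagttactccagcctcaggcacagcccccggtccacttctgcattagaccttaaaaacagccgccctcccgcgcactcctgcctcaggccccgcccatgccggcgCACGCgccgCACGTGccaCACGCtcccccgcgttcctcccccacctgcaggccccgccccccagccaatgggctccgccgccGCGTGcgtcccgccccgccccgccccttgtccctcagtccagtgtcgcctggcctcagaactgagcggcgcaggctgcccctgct
Slc16a3, chr11:120948817-120949116, + strand: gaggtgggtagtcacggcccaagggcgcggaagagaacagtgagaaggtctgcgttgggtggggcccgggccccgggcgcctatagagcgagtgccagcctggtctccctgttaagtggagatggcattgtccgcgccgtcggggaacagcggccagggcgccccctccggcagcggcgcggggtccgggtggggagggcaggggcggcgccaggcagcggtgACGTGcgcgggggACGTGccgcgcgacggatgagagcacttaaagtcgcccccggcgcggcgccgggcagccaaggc

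Estimated counts summed to between 17598763 and 19392655 per library, and every member had at least 28 counts in each. Transcripts of both fibroblasts and macrophages were abundant in all 4 libraries, and the mixture differed. The 17 macrophage markers, all detected in every library, summed to 33037.6 TPM with the mimic, 33152.4 TPM with the negative control, 34095.4 TPM in untransfected knockout and 22991.5 TPM in wild-type cells. The 15 fibroblast markers, none at 0 in any library, summed to 8929.8, 7947.3, 8250.2 and 18845.6 TPM in the same order, and 16 genes of mitosis to 404.8, 472.5, 469.8 and 193.5 TPM. Lyz2 alone gave 14912.6 TPM of the macrophage sum in wild type, and without it that sum would be below the fibroblast one. TPM is a level per transcript length, scaled to the same total in each library. In such a bulk sample fewer cells of a type and less RNA per cell cannot be told apart. Markers of skeletal muscle and Schwann cells summed to 18.4 and 52.5 TPM in the knockout and to 54.3 and 131.8 TPM in wild type, endothelial markers to at most 11 TPM and red cell markers to at most 1.5 TPM in any library. The differences between knockout and wild type given below stand beside these shifts in marker lists, whose part in them was not tested.

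Levels, in TPM, ran from the housekeeping enzymes of glycolysis, with Gapdh between rank 16 and rank 25 of all genes, to HIF genes of a few TPM. The 13 enzymes from glucose-6-phosphate isomerase to pyruvate kinase together took 1.05% of all TPM with the mimic, 0.995% with the negative control, 1.08% in untransfected knockout and 1.01% in wild-type cells. Gapdh, glyceraldehyde-3-phosphate dehydrogenase, led with 3648.93 TPM with the mimic, 3413.67 TPM with the negative control, 3791.05 TPM in the knockout and 3391.99 TPM in wild type. Pkm, pyruvate kinase, had 2029.91, 2041.4, 2106.26 and 1678.9 TPM in that order, and Aldoa, the main aldolase, 1513, 1485.62, 1541.12 and 1699.32 TPM. Pkm was thus above Aldoa in the 3 knockout libraries and slightly below it in wild type. The rarest member in each library was Egln3, a prolyl hydroxylase, with 2.41, 1.89, 2.71 and 2.52 TPM in the same order.

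**Figure D1:**
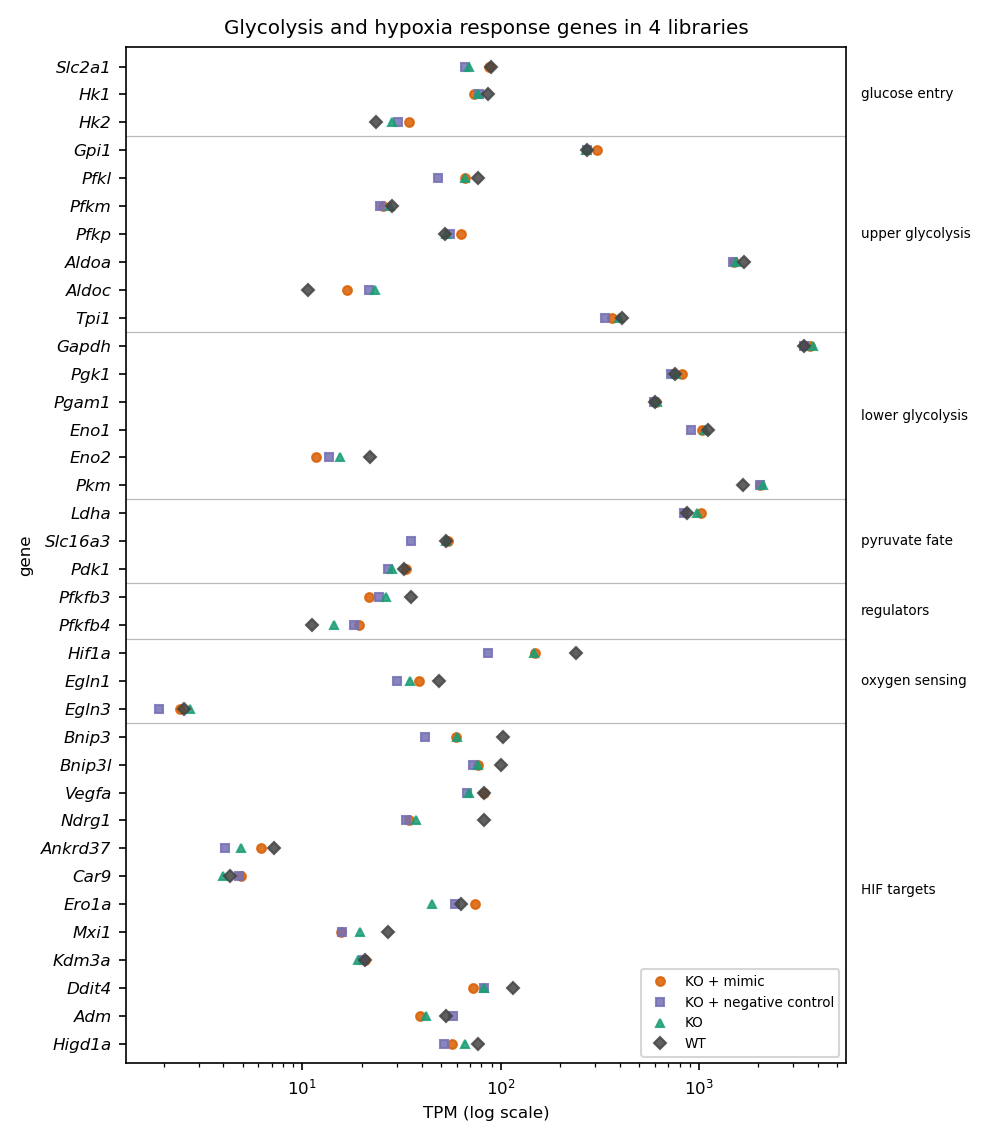
TPM (log axis) of the 36 members in the 4 libraries, 1 symbol per library, with genes grouped by role. Gapdh, Pkm and Aldoa stand at the right in every library, and the wild-type symbol of Hif1a, at 239.27 TPM, lies to the right of the other 3.

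The first comparison sets untransfected knockout cells against wild-type cells. Its ratios lay on different sides of 0 for the 2 kinds of genes. Of the 21 glycolysis genes 14 lay above the median of all measured genes, with a list median of 0.11 on the log2 scale against 0.01 for all genes. Of the 15 oxygen-sensing and HIF target genes 13 lay below the median of all genes, with a list median of -0.33. These counts of 14 and 13 were the same with each of the other scalings tried. On deposited TPM the median of all genes moved to -0.10, and there 9 of the 21 and 1 of the 15 were above 0. At least 2-fold higher was 1 of the 36 members, Aldoc, against 5.90% of 12803 measured genes, and none was at least 2-fold lower, against 7.00%. At 1.5-fold the counts were 1 higher, against 11.3% of all genes, and 2 lower, Bnip3 and Ndrg1, against 13.2%. The members' share past either limit was thus below that of the whole table.

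**Figure D2:**
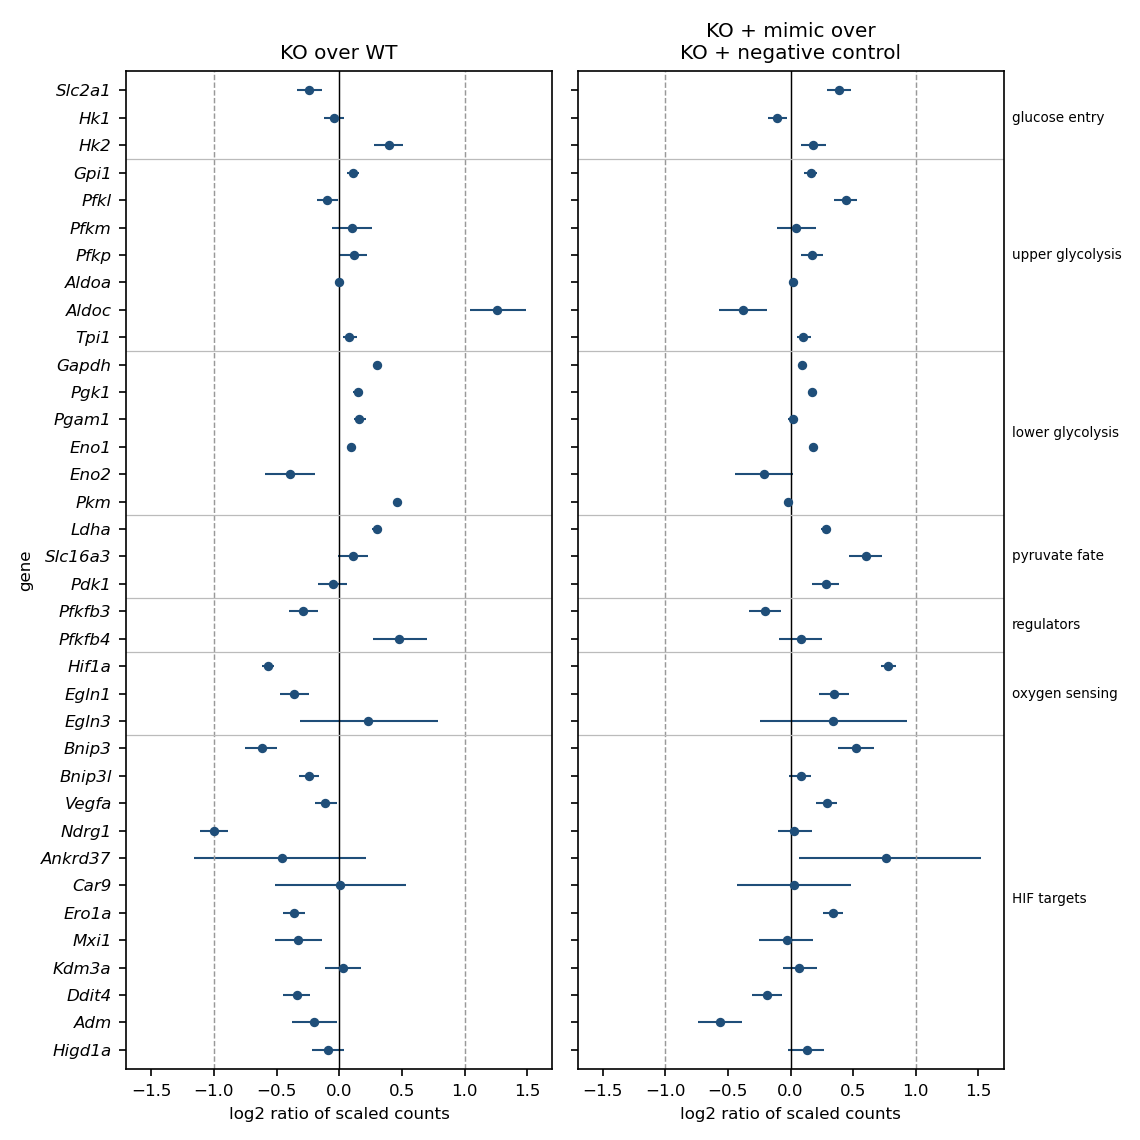
Log2 ratio of scaled counts for each member, knockout over wild type on the left and mimic over negative control on the right, with bars for the 95% counting interval and dashed lines at 2-fold. On the left Aldoc lies beyond the upper dashed line at 1.26 and Ndrg1 lies on the lower one, whereas on the right no member reaches either line.

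Glucose entry showed opposite ratios for its members. Slc2a1, the glucose transporter GLUT1, had 87.58 TPM with the mimic, 66.48 TPM with the negative control, 69.3 TPM in the knockout and 89.54 TPM in wild type. Its log2 ratio of knockout to wild type was -0.24 (-0.34 to -0.14). Hk2, the inducible hexokinase, had 34.62, 30.38 and 28.19 TPM in the 3 knockout libraries in that order and 23.39 TPM in wild type. It was lowest in wild type, with a ratio of 0.40 (0.28 to 0.51). Hk1, the hexokinase of most tissues, had 73.68, 77.63, 76.78 and 86.37 TPM, and its ratio of -0.04 (-0.12 to 0.04) was within counting error of 0.

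In the upper steps the largest difference belonged to a minor isozyme. Aldoc, aldolase C, known from brain, had 16.7 TPM with the mimic, 21.62 TPM with the negative control and 23.36 TPM in the knockout, against 10.67 TPM in wild type. All 3 knockout libraries stood above the wild-type one, and the ratio of untransfected knockout to wild type was 1.26 (1.04 to 1.49), a 2.39-fold difference. Aldoa carried between 98.5% and 99.4% of the summed aldolase TPM and had a ratio of 0.00 (-0.03 to 0.03). Gpi1, glucose-6-phosphate isomerase, had 307.32, 273.51, 269.61 and 273.79 TPM, with a ratio of 0.11 (0.06 to 0.16) on scaled counts that was -0.02 on deposited TPM. The phosphofructokinase subunits Pfkl, Pfkm and Pfkp had knockout to wild-type ratios of -0.10 (-0.18 to -0.01), 0.10 (-0.06 to 0.26) and 0.12 (0.01 to 0.22), and Tpi1, triose-phosphate isomerase, one of 0.08 (0.03 to 0.14). For Pfkm and Tpi1 the sign also turned on deposited TPM.

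The lower steps were slightly higher in the knockout library, except for the neuronal enolase Eno2. Pkm had 44155 counts in the knockout and 32365 in wild type, a ratio of 0.46 (0.44 to 0.48), and Gapdh one of 0.30 (0.28 to 0.32). Pgk1, phosphoglycerate kinase, and Pgam1, phosphoglycerate mutase, had ratios of 0.15 (0.11 to 0.19) and 0.16 (0.12 to 0.21). Eno1, the common enolase, stood at 0.09 (0.06 to 0.12), and at -0.05 on deposited TPM. Eno2 had 11.66 TPM with the mimic, 13.56 TPM with the negative control, 15.48 TPM in the knockout and 21.99 TPM in wild type, with a ratio of -0.39 (-0.59 to -0.19). Its wild-type level was above all 3 knockout libraries. Gapdh and Eno1 had estimated counts with decimals, and how reads that match several genes were divided is not stated, so their values are uncertain.

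Pyruvate handling and the PFKFB enzymes, which make the activator of phosphofructokinase, went both ways. Ldha, the lactate dehydrogenase subunit, had 1028.48 TPM with the mimic, 844.81 TPM with the negative control, 977.66 TPM in the knockout and 871.72 TPM in wild type. Its knockout to wild-type ratio was 0.30 (0.26 to 0.34). Slc16a3, the lactate exporter MCT4, and Pdk1, a pyruvate dehydrogenase kinase, had ratios of 0.11 (-0.01 to 0.23) and -0.05 (-0.17 to 0.06). Both were within counting error of 0. Pfkfb4 had 19.3, 18.31 and 14.51 TPM in the libraries with mimic, with negative control and of untransfected knockout, against 11.22 TPM in wild type, a ratio of 0.48 (0.27 to 0.70). Pfkfb3 ran the other way, with 21.6, 24.31, 26.51 and 35.18 TPM in the same order and a ratio of -0.29 (-0.40 to -0.17). No library of knockout cells reached the wild-type level of Pfkfb3, and none was as low as wild type for Pfkfb4.

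The oxygen-sensing genes were led by Hif1a itself (Entrez Gene 15251), which encodes the regulated alpha subunit and spans 73901324 to 73947554 of chromosome 12 (GRCm38.p6). It had 149.02 TPM with the mimic, 86.62 TPM with the negative control, 148.21 TPM in the knockout and 239.27 TPM in wild type. All 3 knockout libraries were below wild type, with a ratio of untransfected knockout to wild type of -0.57 (-0.62 to -0.52). Egln1, the main HIF prolyl hydroxylase, had 38.92, 30.13, 34.99 and 49.06 TPM and a ratio of -0.36 (-0.47 to -0.24). Egln3 had at most 63 counts in a library, and its interval of -0.31 to 0.79 allows a difference in either direction.

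Among the HIF targets 10 of 12 had a knockout to wild-type ratio below 0, and for the other 2 the interval included 0. Ndrg1 (Entrez Gene 17988), a stress-responsive gene at 66929318 to 66969641 of chromosome 15, had 34.43 TPM with the mimic, 33.49 TPM with the negative control and 37.6 TPM in the knockout, against 82.36 TPM in wild type. Its ratio of -1.0 (-1.11 to -0.89) fell just short of 2-fold and passed it with DESeq2 size factors or deposited TPM. Bnip3, a mitophagy receptor, had 59.73, 41.36, 60.59 and 102.56 TPM, with a ratio of -0.62 (-0.75 to -0.50), and its relative Bnip3l had one of -0.24 (-0.32 to -0.16). For both genes wild type was the highest library.

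Ddit4, an inhibitor of mTOR signalling, had 72.75, 82.56, 82.89 and 115.29 TPM from mimic to wild type, with a ratio of -0.34 (-0.45 to -0.23). Mxi1, a repressor of MYC targets, and Ero1a, an oxidase of the endoplasmic reticulum, stood at -0.33 (-0.51 to -0.14) and -0.36 (-0.45 to -0.27). Vegfa, the vascular growth factor, had 82.24 TPM with the mimic, 67.65 TPM with the negative control, 69.19 TPM in the knockout and 82.19 TPM in wild type, and a ratio of only -0.11 (-0.19 to -0.02). Adm, which encodes the peptide adrenomedullin, had a ratio of -0.20 (-0.38 to -0.02). Higd1a, a mitochondrial protein, Ankrd37, Car9, a carbonic anhydrase, and the histone demethylase Kdm3a had intervals that included 0. Car9, a gene with little expression outside hypoxia in most tissues, had 4.92, 4.8, 3.96 and 4.31 TPM, and Ankrd37 between 28 and 46 counts.

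The same direction was seen in other oxygen-sensing and HIF genes, taken from a list of 50. Of the 45 measured, 31 were below 0, against 48.8% of all genes, with a median of -0.18. At least 2-fold lower were 6, against 7.00% of all genes, and 0 were at least 2-fold higher, against 5.90%. Angptl4, a lipase inhibitor, was measured at 4.47 TPM in knockout cells, against 40.42 TPM in wild-type cells, a ratio of -3.03 (-3.42 to -2.69). Ppp1r3c, a glycogen-targeting phosphatase subunit, the chemokine Cxcl12, Errfi1, an inhibitor of EGFR, and the hormone Stc2 were at -3.65, -2.84, -1.37 and -1.25. Cxcl12 is also a gene of stromal cells. Other glycolysis genes, 34 measured of a list of 41, had a median of 0.09, with 2 at least 2-fold higher and 1 lower, shares no larger than the 5.90% and 7.00% of all genes. The higher ones were Hk3, the hexokinase of blood cells, at 1.59 (1.49 to 1.69), and the transporter Slc2a6 at 1.14 (0.79 to 1.5). The lower one was the muscle mutase Pgam2, at -1.15 (-2.0 to -0.41), and the skeletal muscle markers were lower too.

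**Figure D3:**
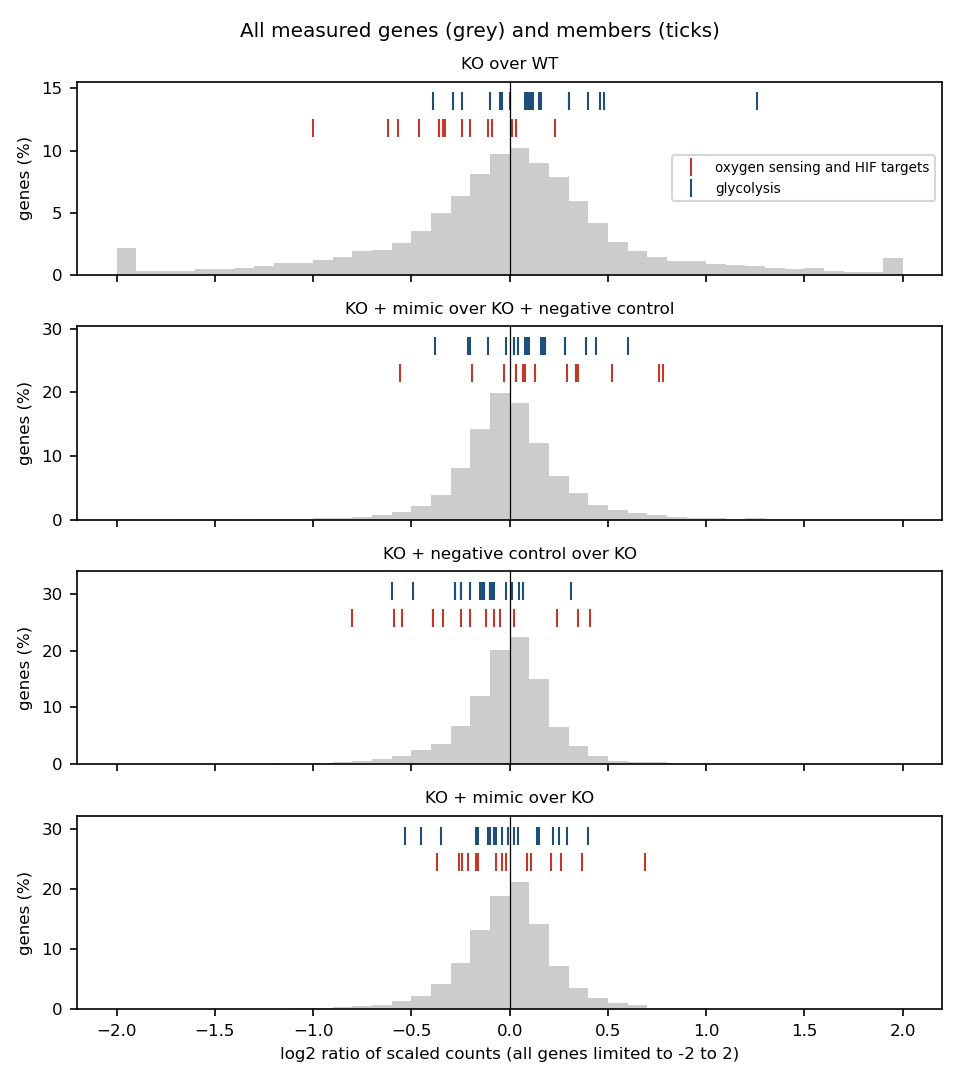
Percent of all measured genes by log2 ratio (grey, limited to -2 to 2) in each of the 4 comparisons, with a tick for each member, glycolysis in blue and oxygen sensing and HIF targets in red. In the panel of knockout over wild type 12 of the 15 red ticks lie left of 0, and in that of negative control over untransfected knockout 28 of the 36 ticks of both colours do.

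The mimic comparison asks what returning miR-26a does in knockout cells, set against the Silencer Negative Control. No member reached 2-fold in either direction, against 0.871% of 12512 measured genes higher and 0.352% lower. At 1.5-fold 3 members were higher with the mimic, Hif1a, Slc16a3 and Ankrd37, against 2.87% of all genes, and 0 were lower, against 1.68%. Of all 36 members 28 were above 0, with a median log2 ratio of 0.12 against -0.01 for all genes. With total-count scaling 24 were above 0. Set against untransfected knockout cells instead, the mimic library had 14 of the 36 members above 0 and 22 below, with a median of -0.06. Hif1a had 6017 counts with the mimic and 3740 with the negative control, a ratio of 0.78 (0.72 to 0.84). For Slc16a3 the ratio was 0.60 (0.47 to 0.73) and for Ankrd37, with 45 and 28 counts, 0.76 (0.07 to 1.52). Bnip3 stood at 0.52 (0.38 to 0.67), Pfkl at 0.44 (0.35 to 0.53), Slc2a1 at 0.39 (0.29 to 0.48) and Egln1 at 0.35 (0.23 to 0.47). Ldha and Pdk1 of pyruvate handling had 0.28 (0.24 to 0.31) and 0.28 (0.17 to 0.39), and the HIF targets Ero1a and Vegfa 0.34 (0.26 to 0.42) and 0.29 (0.20 to 0.37). Among the 12 HIF targets 9 were above 0 and 3 below, and their median was only 0.08. Adm, a HIF target, was the lowest of the 36 members, at -0.56 (-0.74 to -0.39). Aldoc was also lower with the mimic, at -0.38 (-0.57 to -0.19) against the negative control and -0.53 (-0.72 to -0.34) against untransfected cells. Relative to the negative control, Pfkfb3 stood at -0.20 (-0.33 to -0.08), Ddit4 at -0.19 (-0.31 to -0.07) and Hk1 at -0.11 (-0.18 to -0.03). Of the 45 other HIF genes measured, 31 were above 0, against 48.6% of all genes, with a median of 0.13. At least 2-fold higher were 2, Ak4 and Edn1, against 0.871% of all genes, and 0 were lower, against 0.352%. Edn1 had only 24 and 7 counts. At 1.5-fold 6 were higher, against 2.87%, and 2 were lower, against 1.68%. The lower ones were Plod2 at -0.84 (-0.91 to -0.77) and Loxl2 at -0.73 (-0.79 to -0.67). Of 33 other glycolysis genes 13 were above 0, with a median of -0.04 and none past 1.5-fold. All 16 genes of mitosis were below 0 in this comparison, with a median of -0.26, while macrophage markers had a median of -0.05 and fibroblast markers one of 0.11. The part of these markers in the members' ratios was not tested.

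Untransfected knockout cells give the negative control its own comparison. The negative control over the untransfected knockout had 0 members past 2-fold in either direction, against 0.295% of 12532 genes higher and 0.718% lower. At 1.5-fold 0 members were higher, against 0.981%, and 3 were lower, Hif1a, Slc16a3 and Bnip3, against 2.71%. Their ratios were -0.80 (-0.86 to -0.74), -0.60 (-0.73 to -0.47) and -0.59 (-0.74 to -0.44). Slc16a3 and Bnip3 lay just past the limit and fell short of it with total counts or deposited TPM. Between mimic and untransfected knockout the intervals of Hif1a, Slc16a3, Bnip3 and Pfkl included 0. There Hif1a stood at -0.02 (-0.07 to 0.03), Slc16a3 at -0.01 (-0.12 to 0.11), Bnip3 at -0.07 (-0.20 to 0.07) and Pfkl at -0.04 (-0.13 to 0.04). The comparisons of the negative control share that library, so their ratios are not independent of each other.

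**Figure D4:**
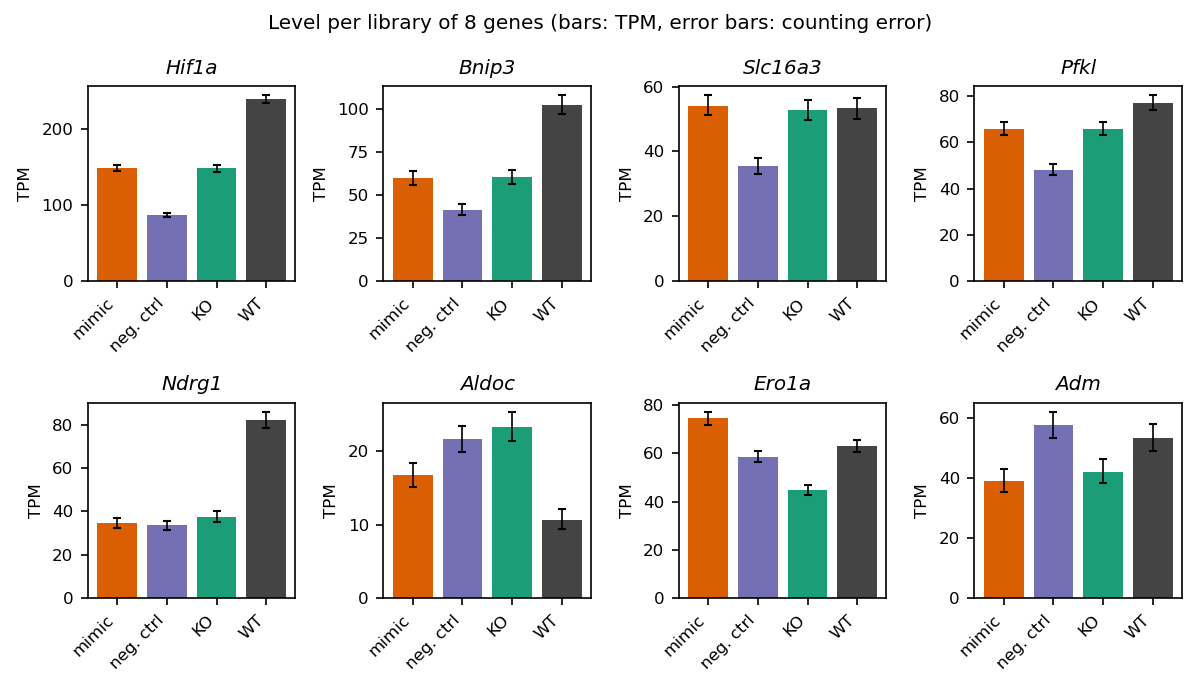
TPM in each library for 8 members, with error bars for the exact 95% Poisson interval, which covers counting error only. In the upper row Hif1a, Bnip3, Slc16a3 and Pfkl are lowest with the negative control and level between mimic and untransfected knockout, and in the lower row Ndrg1 is highest and Aldoc lowest in wild type.

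Across the gene group the negative-control library was the lowest of the 4 for 17 of 36 members, while it was lowest for 22.4% of all 12876 measured genes. With both counting intervals excluding 0, 11 members were lower with the negative control than with the mimic and than in untransfected cells, against 9.58% of 12450 genes, a share that also depends on how many counts a gene has. Besides those named they were Tpi1, Gapdh, Pgk1, Eno1, Ldha, Pdk1 and Egln1. Their ratios to the untransfected knockout lay between -0.13 and -0.28, apart from Pfkl at -0.49 and the 3 genes past 1.5-fold. Adm was the 1 member with the opposite pattern by this measure, against 7.44% of all genes. It had 39.01 TPM with the mimic, 57.54 TPM with the negative control, 42.05 TPM in the knockout and 53.23 TPM in wild type. It was 0.41 (0.24 to 0.58) higher with the negative control than in untransfected cells.

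Among other HIF genes of the list Ccng2, a cyclin, Stc1 and Stc2, secreted hormones, and Fam162a, a mitochondrial protein, were also low with the negative control. Ccng2 had 35.33 TPM with the mimic, 21.55 TPM with the negative control, 34.91 TPM in the knockout and 47.76 TPM in wild type, and Stc1 had 6.93, 4.23, 6.93 and 11.45 TPM. In all, 4 of 44 measured genes of that list were at least 1.5-fold lower with the negative control than in the untransfected knockout, against 2.71% of all genes, and 0 were higher, against 0.981%. Of the other glycolysis genes 0 of 34 were past 1.5-fold in either direction, with a median of 0.00. Macrophage markers had a median of 0.04 in this comparison with 12 of 17 above 0, and fibroblast markers one of -0.15 with 14 of 15 below 0. Their part in these differences was not tested.

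Mimic and untransfected knockout cells differed by at least 1.5-fold in 1 member, Ero1a, against 1.12% of 12536 genes higher, and 0 were lower, against 1.79%. At 2-fold there was no member, against 0.263% of genes higher and 0.471% lower. Ero1a had 74.57 TPM with the mimic, 58.56 TPM with the negative control, 44.92 TPM in the knockout and 63 TPM in wild type. It was higher with either oligonucleotide, at 0.69 (0.60 to 0.77) for the mimic and 0.35 (0.26 to 0.44) for the negative control. Of the HIF list Ak4, a mitochondrial adenylate kinase, had the largest ratio among those with at least 5 TPM, at 0.97 (0.78 to 1.17) over untransfected cells and 1.39 (1.18 to 1.60) over the negative control. The collagen-modifying enzymes Plod2 and Loxl2 were lower with the mimic than in untransfected cells, at -0.83 (-0.90 to -0.76) and -0.75 (-0.81 to -0.69).

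The 3 members with a miR-26a site each had their lowest scaled count in the mimic library, as did Hk1, Eno2 and Ddit4, which have no site. These 6 of 36 members stand against 19.8% of all 12876 measured genes that were lowest with the mimic, a share above that of the members. Adm stood at -0.56 (-0.74 to -0.39) against the negative control and -0.16 (-0.35 to 0.03) against untransfected cells. Pfkfb3 had ratios of -0.20 (-0.33 to -0.08) and -0.35 (-0.48 to -0.22) in the same order. Mxi1 had 15.6 TPM with the mimic, 15.87 TPM with the negative control, 19.63 TPM in the knockout and 27.15 TPM in wild type, with ratios of -0.03 (-0.25 to 0.18) and -0.37 (-0.58 to -0.16). Pfkfb3 was lower with the mimic than in both other knockout libraries beyond counting error, and for Adm and Mxi1 one of the intervals included 0. In the untransfected library labelled as knockout none of the 3 was above wild type, with ratios of -0.20, -0.29 and -0.33 for Adm, Pfkfb3 and Mxi1.

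The balance of isoforms differed between the 3 knockout libraries and the wild-type one for hexokinase, PFKFB and HIF alpha. Hk3, which is not a member, took 51.7% of the summed TPM of Hk1, Hk2 and Hk3 with the mimic, 55.4% with the negative control and 51.9% in the knockout, against 27.4% in wild type. Hk1 had shares of 32.9%, 32.0%, 35.2% and 57.2% in the same order. The macrophage markers were higher in the same 3 libraries. Pfkfb4 took 35.2%, 32.8% and 27.6% of the PFKFB transcripts in the knockout libraries in that order, against 18.7% in wild type, and Pfkfb3 39.4%, 43.5%, 50.4% and 58.6%. Epas1, which encodes HIF-2 alpha, had 16.88, 13.05, 15.35 and 11.94 TPM, so that Hif1a made up 89.8%, 86.9% and 90.6% of HIF alpha transcripts in the knockout libraries and 95.2% in wild type. For phosphofructokinase the liver subunit Pfkl had its lowest share with the negative control, 37.5%, against 42.6% with the mimic, 44.9% in the knockout and 48.8% in wild type.

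**Figure D5:**
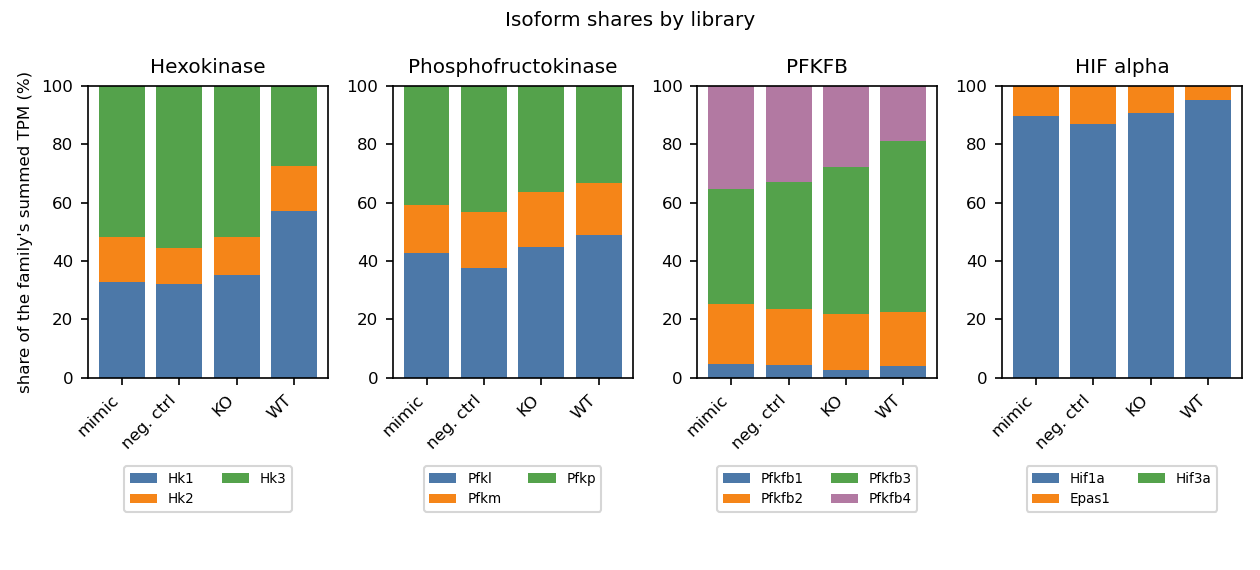
Share of each isoform in the summed TPM of its family (percent), by library, for hexokinase, phosphofructokinase, PFKFB and HIF alpha. Hk3 takes more than Hk1 in the 3 knockout libraries and less in wild type, where Hk1 has 57.2%.

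The authors' deposited table gives log2 ratios of knockout to wild type of -1.01 for Ndrg1, 1.25 for Aldoc, -0.64 for Bnip3 and -0.58 for Hif1a. For all 14600 genes compared these equal the ratio of counts not scaled by library size, within 0.01. Without knowledge of strand in counting, reads of overlapping genes on opposite strands could be joined. The neighbour on the opposite strand with the largest overlap covers 22.3% of the annotated exon bases of Bnip3, 22.5% of Higd1a, 22.7% of Ankrd37, 6.35% of Ndrg1 and 5.6% of Hif1a (GENCODE M21). Ankrd37 and Ndrg1 each have another such neighbour, at 3.7% and 2.08%. No exon on the opposite strand overlaps those of Aldoc, Slc16a3, Pfkl and Ero1a.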

How the data were processed

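RNA-seq of 4 libraries, 1 per group by the sample labels, was analysed from 2 tables deposited by the authors. FastQC, HISAT and Bowtie2 were used with GRCm38.p6 (mm10), per the submitters' processing notes, which state no roles or versions. Which program quantified genes, with which annotation and strand setting, is not given in the sources. The deposited values, per the file headers, are estimated counts (not scaled), TPM, FPKM, a normalized count that is a signal divided by a size factor, and the authors' log2 ratios with PoissonDis p-values. FPKM, the signal and the p-values were not used.

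Counts were scaled with edgeR 4.0.16 TMM factors, rounded to whole numbers for intervals, and log2 ratios were taken with a prior of 1 count. A gene was measured at 1 CPM or more in either library. Past a fold means a ratio of at least 2-fold, or 1.5-fold, with an exact conditional binomial (Clopper-Pearson) 95% interval excluding 0. Reads are not independent molecules, so intervals cover counting error only. All 36 members passed the filter in every comparison. Of the identifiers 16369 were found in RefSeq. Members were to be named with values when at least 2-fold apart, or among the 2 most abundant or 2 largest ratios of their role, and list genes when among the 5 largest ratios with 5 TPM or more. Some list genes that meet this rule are not reported here. Members described beyond this rule, and the 8 genes plotted, were chosen after their values were seen. The members and lists were chosen with earlier results of these data known. The procedure was tested on simulated counts that held counting error only. They had no spread between cultures, so the test cannot show how the calls would hold in other cultures. Software was R 4.3.3, DESeq2 1.42.0 for size factors, and Python 3.11.15.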

Additional observations from a re-analysis of the deposited data

How the results depend on the processing

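No paired analysis was possible because each group had 1 library. No member past 2-fold changed sign in any setting. With DESeq2 size factors or deposited TPM, Ndrg1 passed 2-fold, so that the count of members lower in knockout than wild type was 1. At 1.5-fold with TMM scaling 2 members were lower for knockout over wild type and 3 were higher for mimic over negative control. For negative control over knockout 3 were lower, and for mimic over knockout 1 was higher. Of the lower ones with the negative control, Slc16a3 at 1.52-fold and Bnip3 at 1.51-fold fell short with total counts or deposited TPM. For mimic over negative control Slc16a3 fell short with total counts and Ankrd37 on deposited TPM. On deposited TPM Hif1a was also past 1.5-fold lower for knockout over wild type. On deposited TPM the knockout over wild-type median was -0.154 for members and -0.104 for all genes, an offset that turns the sign of small ratios such as those of Gpi1, Tpi1 and Eno1. Depth limits Egln3, Ankrd37 and Car9.

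Counts over all genes moved more. For knockout over wild type, 1445 were higher and 1690 lower at 1.5-fold, 418 higher on deposited TPM, and 556 lower at 5 CPM. For mimic over negative control, higher and lower genes were 43 and 10 at 5 CPM, 32 and 10 on deposited TPM, and 359 and 210 at 1.5-fold, with 82 lower without a minimum and 24 lower with a prior of 5 counts. For negative control over knockout they were 74 and 136 without a minimum, 5 and 33 at 5 CPM, 7 and 24 on deposited TPM, and 123 and 340 at 1.5-fold, with 16 higher with the larger prior. For mimic over knockout they were 69 and 90, 3 and 9, 7 and 12, and 141 and 224 in the same order, with 30 lower with the larger prior. The cause was not tested beyond the fewer or more genes each setting counts.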
